A study of Canis lupus familiaris with 8 samples.

Results

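BIRC5, CCNB2, ASPM and CCND1 are genes of the cell division cycle, and their levels are described here in a canine mammary carcinoma line, in its drug-resistant subline and in the stem-like cells sorted from each. A gene probe was taken as a member when the RefSeq accession it carries belongs to 1 of these 4 genes. The 4 genes are 4 of the 1458 that could be named on the array, and 6 of its 43603 gene probes met this rule. BIRC5 had probe A_11_P0000020056 (NM_001003348), ASPM had A_11_P0000024927 (NM_001197076) and CCND1 had A_11_P0000020122 (NM_001005757). CCNB2 (NM_001313810) had 3 probes, called by their signal the brightest (A_11_P153858), the middle (A_11_P0000023521) and the faintest (A_11_P176838). All 6 probes were well above background on all 8 arrays, none was saturated, and all 6 were tested.

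Total RNA was hybridised to 1-colour Agilent arrays, 2 arrays for each of 4 groups. Star parent is CMT-Star, a subline selected over months of rising doxorubicin until it grew at 100 nM of this topoisomerase-poisoning drug, and Stylo parent is CMT-Stylo, the line it came from. Star CSC and Stylo CSC are cells sorted from CMT-Star and from CMT-Stylo for CD44, low or absent CD24 and aldehyde dehydrogenase activity, a phenotype used to enrich cancer stem cells (CSC). The labels give doxorubicin treatment for both Star groups and none for both Stylo groups, without saying whether the drug was present at harvest. The study used 1 line and 1 subline, whose clonality is not stated, and no label records separate cultures for the 2 arrays of a group. The p-values therefore rest on differences between arrays that could be purely technical.

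The cell cycle is driven by cyclins, which switch on cyclin-dependent kinases in turn. Cyclin D1 (CCND1) responds to growth signals and carries cells through G1 towards DNA replication, while cyclin B2 (CCNB2) partners CDK1 around entry into mitosis. Survivin (BIRC5) is a subunit of the chromosomal passenger complex, which corrects chromosome attachment and guides cytokinesis, and it also belongs to the inhibitor of apoptosis family. ASPM sits at the spindle poles and helps to orient the mitotic spindle. In many normal and tumour tissues the transcripts of BIRC5, CCNB2 and ASPM accumulate in dividing cells, whereas CCND1 follows mitogenic signalling. In bulk RNA a smaller share of dividing cells and less transcript per cell cannot be told apart.

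Levels are given as log2 of the processed signal less the array's own 75th percentile, so that 0 is the 75th percentile of the gene probes on that array. These 75th percentiles were 464 to 536 signal units on the Star CSC arrays, 331 to 371 on Star parent, 296 to 310 on Stylo CSC and 69.2 to 88.3 on Stylo parent. The Stylo parent arrays were thus the dimmest, and 46.7% to 47.4% of their gene probes were well above background, against 55.5% to 60.6% on the other 6. The lowest correlation between replicate arrays was 0.981. All Star arrays lay on 1 slide and all Stylo arrays on another. A line effect and a slide effect therefore cannot be told apart wherever lines are compared. Each sorting comparison lay within a slide, but on both slides the parent arrays held positions 1 and 2 and the CSC arrays positions 3 and 4. Sorting and slide position therefore cannot be told apart either. Of the epithelial markers, KRT14 was well above background on every array, but KRT19 was not on the Stylo arrays and CDH1 was not on the Stylo parent arrays, and vimentin (VIM) and the fibroblast markers COL1A1, COL1A2, DCN, PDGFRB and THY1 were above background throughout. Of the myoepithelial markers the 1 with a named probe, MME, was above background on every array (summed linear level over the 75th percentile 0.170 to 0.177 in Star CSC, 0.473 to 0.483 in Star parent, 0.465 to 0.481 in Stylo CSC and 1.31 to 1.36 in Stylo parent). The endothelial sum, over 2 of 4 markers, was 0.560 to 0.960 in Star CSC, 1.18 to 1.48 in Star parent, 1.05 to 1.31 in Stylo CSC and 2.25 to 2.72 in Stylo parent, and KDR was not above background on the Stylo arrays.

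BIRC5, the survivin gene, was high in Stylo parent cells and low in both Star groups. Its level was 0.21 and 1.67 on the Star CSC arrays, 1.41 and 1.15 on the Star parent arrays, 3.12 and 3.13 on the Stylo CSC arrays and 5.81 and 5.78 on the Stylo parent arrays. The Star CSC arrays lay on either side of the Star parent arrays, and neither Star group overlapped either Stylo group. Groups of 2 arrays are readily kept apart, so here and below a lack of overlap is a description and not a test. The share of all probes that showed it is not given. The 2 Star CSC arrays differed by 1.46 on the log2 scale, or 2.76-fold, while the 2 Stylo CSC arrays differed by less than 0.01. The spread of this probe between replicates was larger than that of 92.0% of tested probes (residual SD 0.525, against a median of 0.170), and Star CSC contributed most of it. Within its own array, BIRC5 stood at percentile 76.4 and 85.5 of all gene probes in Star CSC, at 84.1 and 82.4 in Star parent, at 91.8 on both arrays in Stylo CSC and at 97.2 and 97.1 in Stylo parent.

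CCNB2, the mitotic cyclin, followed the order Stylo parent, Stylo CSC, Star CSC and Star parent from high to low on each of its 3 probes at this scaling, an order that the unscaled signals given further on do not share. The brightest probe measured 2.96 and 2.94 in Star CSC, 2.19 and 2.22 in Star parent, 3.45 and 3.39 in Stylo CSC, and 5.11 and 5.21 in Stylo parent. The middle probe measured 1.07 and 0.96 in Star CSC, -0.07 and 0.15 in Star parent, 1.51 and 1.52 in Stylo CSC, and 3.17 and 3.38 in Stylo parent. No 2 groups overlapped on either probe, again a description. The faintest probe measured -1.42 and -1.43 in Star CSC, -2.05 and -2.06 in Star parent, -0.19 and -0.18 in Stylo CSC, and 1.37 and 1.54 in Stylo parent. It kept the same order and was tight between replicates, with a residual SD of 0.0629, against 0.0425 for the brightest probe and 0.112 for the middle one. Every step in the order had a 95% interval that left out 0 on all 3 probes. The smallest was Stylo CSC over Star CSC on the brightest probe (0.46, interval 0.24 to 0.69). The order was picked from these same arrays, so every step is positive by construction. The intervals, not adjusted for that choice, describe the steps and do not test the order, here and for ASPM and CCND1 below.

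The CCNB2 probes moved together but not by equal amounts. Across the 8 arrays the brightest probe correlated at 0.997 with the middle one and at 0.983 with the faintest (Pearson, a description over arrays that share their groups). The brightest probe exceeded the faintest by 4.38 on both arrays in Star CSC and by 4.24 and 4.29 in Star parent. In Stylo CSC this gap was 3.64 and 3.57, and in Stylo parent it was 3.74 and 3.66. The gap was therefore wider on every Star array than on every Stylo array, and the faintest probe gave the larger difference between the lines. Where on the transcript each probe lies was not analysed here.

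ASPM, the spindle pole gene, ran the other way. Its level was 0.82 and 0.84 in Star CSC, 0.81 and 0.86 in Star parent, 0.45 and 0.34 in Stylo CSC, and -0.46 and -0.39 in Stylo parent. Star CSC lay inside the range of Star parent, and both Star groups lay above both Stylo groups. Star CSC differed from Star parent by -0.0048 (95% interval -0.23 to 0.22), and the steps to Stylo CSC (0.44) and on to Stylo parent (0.82) both had intervals above 0. Its range over the 8 arrays was the smallest of the 4 genes, and its residual SD of 0.0496 was below that of most probes (percentile 4.73).

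CCND1, cyclin D1, was high in both Star groups and lower in both Stylo groups. Its level was 4.72 and 5.36 in Star CSC, 5.41 and 5.62 in Star parent, 2.85 and 2.94 in Stylo CSC, and 2.39 and 2.31 in Stylo parent. Both Star CSC arrays lay below both Star parent arrays, and all 4 Star arrays lay well above all 4 Stylo arrays. The probe stood at percentile 97.4 and 98.5 of all gene probes in Star CSC and at 98.2 and 98.4 in Star parent, against 90.7 and 91.1 in Stylo CSC and 87.9 and 87.4 in Stylo parent. Star parent exceeded Star CSC by 0.47 with an interval that took in 0 (-0.06 to 1.01), and Stylo CSC exceeded Stylo parent by 0.55 (0.02 to 1.08).

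**Figure D1:**
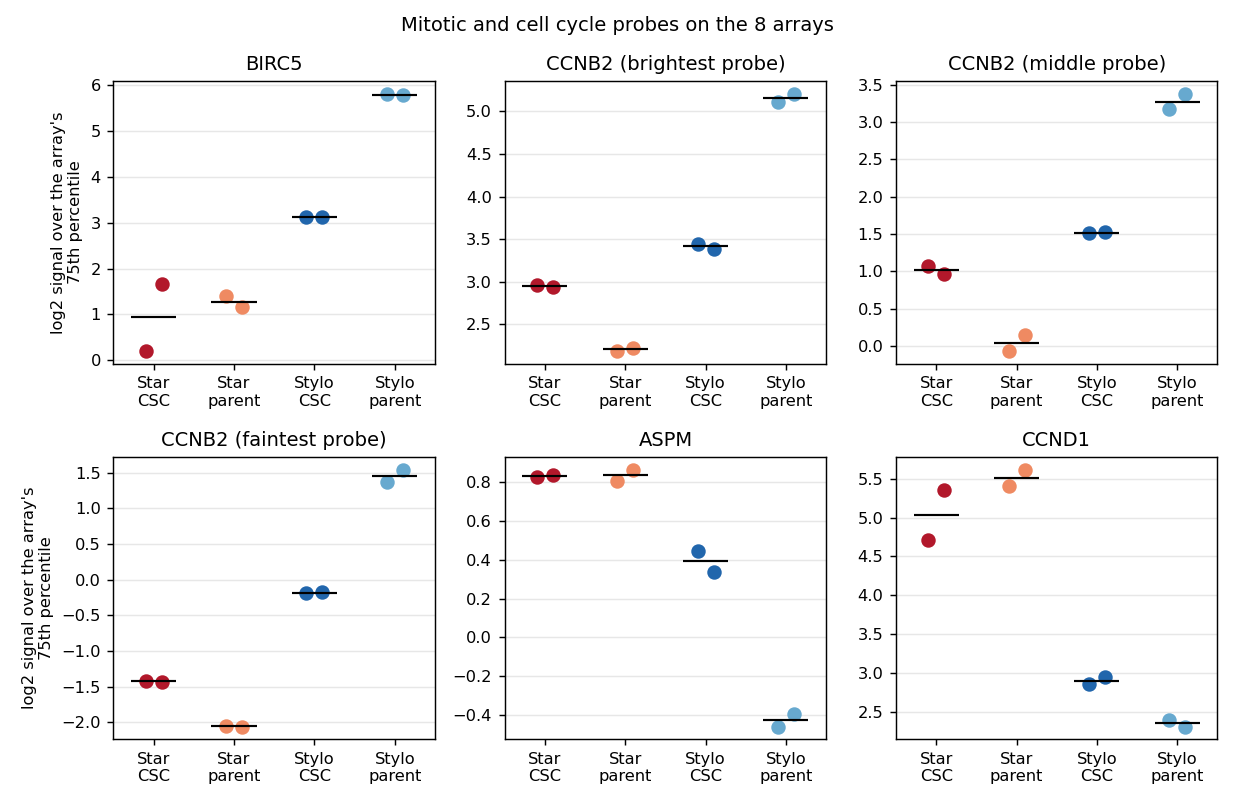
Level of each probe on the 8 arrays, as log2 signal over the array's 75th percentile (y axis, scaled separately for each probe), with points for arrays and a line at the mean of the 2 arrays of a group. BIRC5 and the 3 CCNB2 probes are highest in Stylo parent, ASPM and CCND1 are highest in the Star groups, and the BIRC5 arrays of Star CSC lie apart at 0.21 and 1.67.

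The first comparison asked how the resistant subline differs from its line of origin. BIRC5 and CCNB2 fell and ASPM and CCND1 rose in Star parent against Stylo parent. BIRC5 was 22.8-fold lower (log2 difference -4.51 ± 0.44 SE, limma adjusted p = 0.000170). CCNB2 was 7.73-fold lower on its brightest probe (-2.95 ± 0.09, limma adjusted p = 4.79e-06), -3.23 ± 0.12 on the middle probe and -3.51 ± 0.10 on the faintest. CCND1 was 8.97-fold higher (3.17 ± 0.22, limma adjusted p = 3.87e-05), and ASPM was 2.39-fold higher (1.26 ± 0.09, limma adjusted p = 5.17e-05). A probe was called when its p, adjusted over all 26823 probes tested, was under 0.05 and the change reached 2-fold. All 6 probes were called, 2 higher and 4 lower, in a comparison in which 56.5% of all tested probes were called, 24.6% higher and 31.9% lower. A call is thus common in this comparison, and the size of the change says more than the call. The BIRC5 difference lay at percentile 0.85 of the differences of all tested probes and the CCNB2 differences at 3.11 to 6.17, while CCND1 lay at 97.3 and ASPM at 79.4. The median difference of all probes was -0.20. The summed linear level of the fibroblast markers was 126 to 198 in Star parent, against 77.5 to 84.3 in Stylo parent, a sum made mostly by COL1A2, which was called higher. Single fibroblast markers went both ways, with COL1A1 (-3.01), DCN (-5.47) and PDGFRB (-2.36) called lower and THY1 (0.29) not called. The epithelial sum was 0.817 to 0.974 in Star parent, against 3.41 to 4.16 in Stylo parent, with KRT14 (-2.00) and CLDN3 called lower, CDH1 called higher and KRT19 not called. MME (-1.48) and VIM (-1.33) were called lower. Of the leukocyte markers CD86 (1.29) was called higher, and CD79A (-1.33) and TYROBP (-1.79) were called lower. Of these 2 groups, CD86 was above background in Star parent alone and TYROBP in neither. The part of all these markers in these differences was not tested.

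The second comparison asked what distinguishes the sorted cells of CMT-Stylo from the line itself, and it uses the same Stylo parent arrays as the first. BIRC5 and CCNB2 fell in Stylo CSC against Stylo parent, although CCNB2 turned positive with spike-in scaling and with no scaling, and neither ASPM nor CCND1 was called at the main setting. BIRC5 was 6.35-fold lower (-2.67 ± 0.44, limma adjusted p = 0.00195). The CCNB2 probes gave -1.74 ± 0.09, -1.76 ± 0.12 and -1.64 ± 0.10 from the brightest to the faintest, a 3.34-fold difference on the brightest (limma adjusted p = 2.03e-05). ASPM differed by 0.82 ± 0.09 (limma adjusted p = 0.000384), which is under 2-fold, and CCND1 by 0.55 ± 0.22 (limma adjusted p = 0.0590). The 4 called probes were all lower, in a comparison in which 54% of all tested probes were called, 21.9% higher and 32.1% lower. The BIRC5 difference lay at percentile 4.03 of all probes, and the CCNB2 differences lay at 16.8 to 19.1. The median difference of all probes was -0.28. Of the fibroblast markers, 5 of 6 had a named probe, and their summed linear level over the 75th percentile, mostly COL1A2, was 608 to 649 in Stylo CSC, against 77.5 to 84.3 in Stylo parent. COL1A1 (2.42), COL1A2 (3.03), DCN (1.64) and THY1 (2.73) were called higher with this sort and PDGFRB (-1.09) was called lower. The epithelial sum, over 4 of 10 markers and mostly KRT14, was 2.27 to 2.42 in Stylo CSC, against 3.41 to 4.16 in Stylo parent. CLDN3 (-2.26) was called lower and KRT14 (-0.98) was not called. KRT19 (-1.95) was called lower, though it was not above background on any Stylo array. CDH1, above background on both Stylo CSC arrays and on neither Stylo parent array, was called higher. MME (-1.50) was called lower and VIM (0.21) was not called. The leukocyte markers CD79A (-1.73), CD86 (-1.50) and TYROBP (-1.53) were called lower, though CD86 and TYROBP were above background on no Stylo array. The part of all these markers in the fall of BIRC5 and CCNB2 was not tested.

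The third comparison set the sorted cells of the resistant subline against that subline. No member was called in Star CSC against Star parent, where 9.72% of all tested probes were called, 3.22% higher and 6.51% lower. All 3 CCNB2 probes passed the adjusted p but not the 2-fold limit, with differences of 0.75 ± 0.09 on the brightest, 0.97 ± 0.12 on the middle and 0.63 ± 0.10 on the faintest (limma adjusted p = 0.00380, 0.00441 and 0.00798). These 3 differences lay at percentiles 89.5 to 95.3 of all probes. BIRC5 differed by -0.34 ± 0.44 (95% interval -1.42 to 0.74), ASPM by -0.0048 ± 0.093 (-0.23 to 0.22) and CCND1 by -0.47 ± 0.22 (-1.01 to 0.06). At an unadjusted p under 0.05 with no limit on fold, limma picked the 3 CCNB2 probes, and with the 2-fold limit it picked 0. The middle CCNB2 probe, just under 2-fold, was called without Star CSC replicate 2 (1.03) and without Star parent replicate 2 (1.08). For BIRC5 the result rests on 1 array. Without Star CSC replicate 1 the difference was 0.39 and not called, and without Star CSC replicate 2 it was -1.07 and called (limma adjusted p = 0.0173).

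Some leukocyte markers moved with this sort. Of 9 listed, 5 had a named probe, and 3 or 4 of these were above background on the Star CSC arrays against 2 on the Star parent arrays. Their summed linear level over the 75th percentile was at least 1.04 in Star CSC, against 0.132 to 0.165 in Star parent, and CD86 made nearly all of it. CD86 was called higher (3.97 ± 0.25, limma adjusted p = 0.000660) and CD79A was not called (-0.16 ± 0.34). TYROBP was called higher too and was above background in Star CSC alone, and CD4 was above it on no array. The epithelial sum was 0.859 to 0.945 in Star CSC against 0.817 to 0.974 in Star parent, and the fibroblast sum was 114 to 125 against 126 to 198. Of the epithelial and fibroblast markers KRT19 alone was called (higher). The myoepithelial marker MME (-1.46) was called lower. The part of these cell types in the CCNB2 result was not tested.

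When the sorted cells of the 2 lines were set against each other, BIRC5 and the faintest CCNB2 probe were called lower and CCND1 was called higher in Star CSC against Stylo CSC. BIRC5 was 4.56-fold lower (-2.19 ± 0.44, limma adjusted p = 0.00735) and CCND1 was 4.41-fold higher (2.14 ± 0.22, limma adjusted p = 0.000569). The faintest CCNB2 probe gave -1.24 ± 0.10, whereas the brightest gave -0.46 ± 0.09 and the middle -0.51 ± 0.12, both under 2-fold. The call of the faintest probe was lost with spike-in scaling (-0.65), with normexp and quantile normalization together (-0.74) and with no scaling (-0.53). ASPM was higher by 0.44 ± 0.09, also under 2-fold (limma adjusted p = 0.00909). The 3 called probes, 1 higher and 2 lower, stood in a comparison in which 29.4% of all tested probes were called, 12.6% higher and 16.9% lower. CCND1 lay at percentile 96.6 and BIRC5 at 4.57 of all differences. The summed leukocyte markers, mostly CD86, were at least 1.04 in Star CSC, against 0.0844 to 0.112 in Stylo CSC, and the fibroblast sum was 114 to 125 in Star CSC, against 608 to 649 in Stylo CSC, with COL1A1, COL1A2, DCN and THY1 called lower and PDGFRB not called. The epithelial sum was 0.859 to 0.945 in Star CSC, against 2.27 to 2.42 in Stylo CSC. KRT14 (-1.37), CDH1 (-2.20) and CLDN3 (-2.41) were called lower and KRT19 (3.29) was called higher. The myoepithelial marker MME (-1.45) and VIM (-1.95) were called lower. The part of all these markers was not tested. BIRC5 and CCND1 kept their direction and call under all 23 alternative settings, from -2.92 to -1.46 for BIRC5 and from 1.82 to 2.86 for CCND1.

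**Figure D2:**
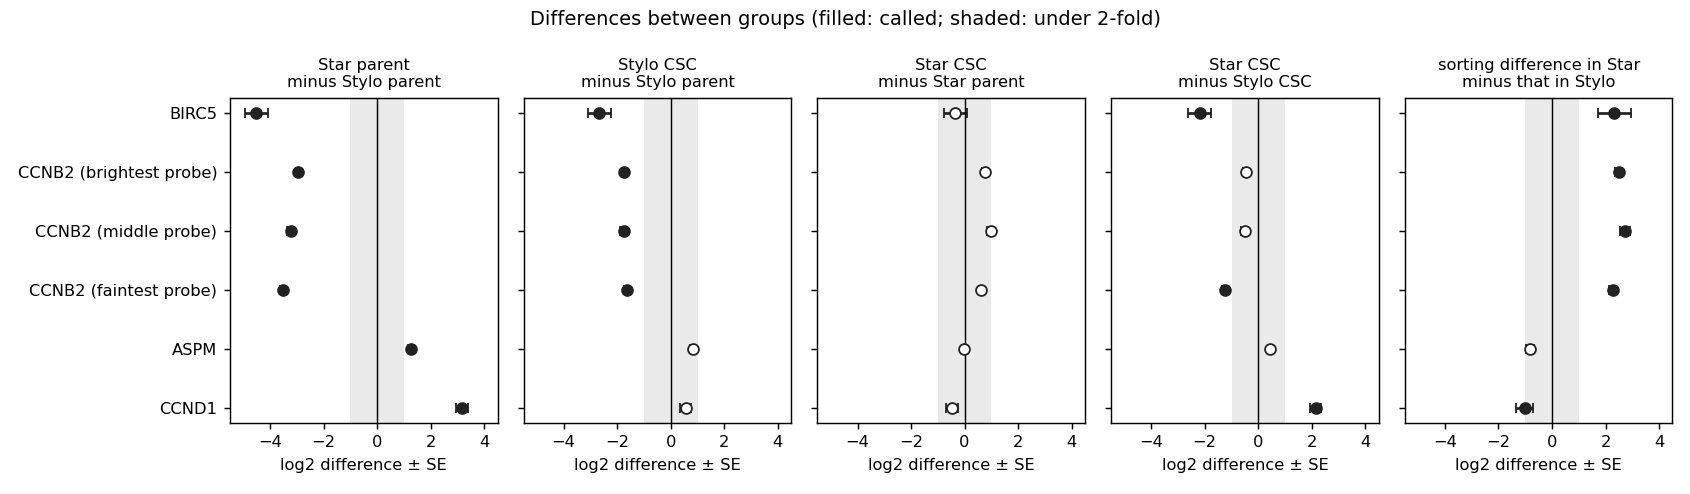
Log2 difference (x axis) of each probe in the 5 comparisons, with bars of ± 1 standard error from the limma fit, filled points for called probes and a shaded band for changes under 2-fold. At the main setting BIRC5 lies left of 0 and CCND1 right of 0 in both comparisons of Star with Stylo, and all points of Star CSC minus Star parent lie within the band.

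The difference between the lines in what sorting did was tested directly, as the difference in Star minus the difference in Stylo. It was positive for CCNB2, at 2.49 ± 0.13 on the brightest probe, 2.73 ± 0.18 on the middle and 2.27 ± 0.14 on the faintest (limma adjusted p = 5.33e-05, 8.27e-05 and 7.34e-05). The CCNB2 shift with sorting, negative in Stylo except with spike-in scaling and with no scaling, thus differed from the shift in Star by more than the replicate spread. BIRC5 gave 2.32 ± 0.62 (limma adjusted p = 0.0180) and CCND1 gave -1.03 ± 0.31 (limma adjusted p = 0.0271). ASPM gave -0.82 ± 0.13 and was not called, being under 2-fold (limma adjusted p = 0.00233), but it was called in 3 of 8 scalings, which were median scaling (-1.02), the detected-probe percentile and no scaling (-2.27). The count was 4 higher and 1 lower of 6, in a contrast in which 52.1% of all tested probes were called, 28.2% higher and 24% lower. The CCND1 value passed the threshold narrowly: leaving out 1 array gave -1.35 to -0.70, and it was called in 2 of the 8 such fits, those without Star CSC replicate 2 and without Star parent replicate 1. BIRC5 was called in 5 of 8, with values from 1.59 to 3.05, and lost the call without Star parent replicate 2, Stylo CSC replicate 1 or Stylo CSC replicate 2 (limma adjusted p = 0.0586, 0.0508 and 0.0502). Each CCNB2 probe was called in all 8.

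Since a factor common to a whole array cancels when 2 probes are compared on the same array, the changes were also set against each other. In Star parent against Stylo parent the change of CCND1 exceeded that of BIRC5 by 7.68 on the log2 scale, with 7.42 and 7.94 as the extremes over pairs of arrays. The change of ASPM exceeded that of CCNB2 (brightest probe) by 4.21, with extremes of 4.18 and 4.24. The G1 cyclin and the spindle gene thus moved apart from survivin and the mitotic cyclin whatever constant was used to scale an array. In Stylo CSC against Stylo parent the same 2 gaps were 3.22 (3.15 to 3.28) and 2.56 (2.52 to 2.60). For the sorted Star cells against Star parent they were -0.13 (-0.77 to 0.51) and -0.75 (-0.78 to -0.72), so CCNB2 gained on ASPM there. Between Star CSC and Stylo CSC they were 4.33 (3.88 to 4.78) and 0.90 (0.86 to 0.94). CCND1 also exceeded ASPM by 1.91 in Star parent against Stylo parent (1.75 to 2.06), and the change of BIRC5 lay 1.56 below that of CCNB2 (log2 -1.56, with extremes of -1.77 and -1.35).

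The signals before any scaling put these differences beside the brightness of the arrays. BIRC5 measured 618 and 1474 signal units in Star CSC, 984 and 735 in Star parent, 2700 and 2592 in Stylo CSC, and 4950 and 3797 in Stylo parent. It was brightest on the dimmest arrays. The brightest CCNB2 probe measured 4176 and 3567 in Star CSC, 1692 and 1546 in Star parent, 3371 and 3104 in Stylo CSC, and 3048 and 2557 in Stylo parent. Its signal was lowest in Star parent, and in the Stylo CSC arrays it was slightly above that of the Stylo parent arrays. ASPM measured 948 and 828 in Star CSC, 649 and 602 in Star parent, 422 and 375 in Stylo CSC, and 64.3 and 52.8 in Stylo parent. CCND1 measured 14087 and 19057 in Star CSC, 15741 and 16256 in Star parent, 2238 and 2280 in Stylo CSC, and 462 and 343 in Stylo parent. Both of these genes were dimmest in Stylo parent.

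**Figure D3:**
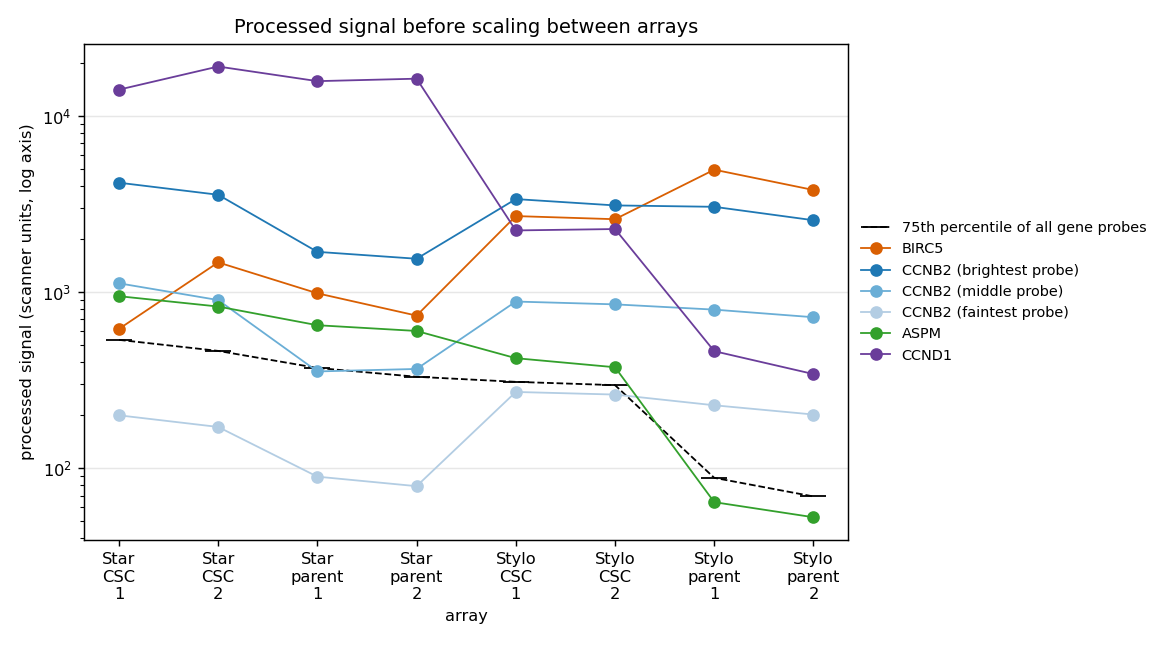
Processed signal before scaling (y axis, scanner units on a log axis) on each of the 8 arrays for the 6 probes, with the 75th percentile of all gene probes as a dashed line; lines join arrays only to guide the eye. The dashed line is lowest on the Stylo parent arrays, where BIRC5 reaches its highest signal, 4950.

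The choice of scaling moved the size of every comparison with Stylo parent. Over 8 scalings, which include signals with no scaling and scaling on 7 spike-in probes, BIRC5 in Star parent against Stylo parent ran from -4.51 to -2.35 and CCND1 from 3.17 to 5.33, and both were called in all 8. ASPM ran from 0.93 to 3.42 and was called in 7, the exception being normexp background correction together with quantile normalization. The brightest CCNB2 probe ran from -2.95 to -0.79 and was called in 7, the exception being no scaling. In Stylo CSC against Stylo parent the CCNB2 probes were lower and called in 6 scalings but turned positive with spike-in scaling (0.36, 0.35 and 0.46 from the brightest to the faintest) and with no scaling (0.21, 0.20 and 0.31). BIRC5 was lower in all 8 and called in 6, with -0.56 under spike-in scaling and -0.71 with none. ASPM was called higher there in 4 scalings, which were median scaling (1.25), the detected-probe percentile (1.02), spike-in scaling (2.92) and none (2.77), and CCND1 in 2, spike-in scaling (2.65) and none (2.50). The median of all probes itself stood at 1.83 with spike-in scaling and 1.68 with none in this comparison, and relative to it the brightest CCNB2 probe lay between -1.47 and -1.20 and BIRC5 between -2.48 and -1.81 over the 8 scalings. The spike-in probes averaged 10.45 and 10.30 (log2 signal) in Star CSC, 11.75 and 11.26 in Star parent, 10.45 and 10.04 in Stylo CSC and 10.07 and 10.72 in Stylo parent, so they differed between replicates by up to 0.65.

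In the comparison within the Star slide, CCNB2 was higher in Star CSC under all 8 scalings, from 0.75 to 2.39 on the brightest probe, 0.73 to 2.62 on the middle and 0.34 to 2.27 on the faintest. With spike-in scaling all 6 probes were called higher there, as were 21440 of the 26821 probes tested. Of all calls 99.2% were higher, and the median of all probes stood at 1.54. Relative to the median of all probes, the brightest CCNB2 probe lay between 0.77 and 0.85, and BIRC5 between -0.37 and -0.16. The brightest and middle CCNB2 probes turned positive in Star CSC against Stylo CSC with spike-in scaling and with none (0.13 and 0.09, then 0.25 and 0.21), and neither was called under any of the 8. The sorting difference between the lines was positive on all 3 CCNB2 probes under all 8 scalings, at 1.04 to 2.49 on the brightest, and was called in 8, 8 and 7 of them.

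**Figure D4:**
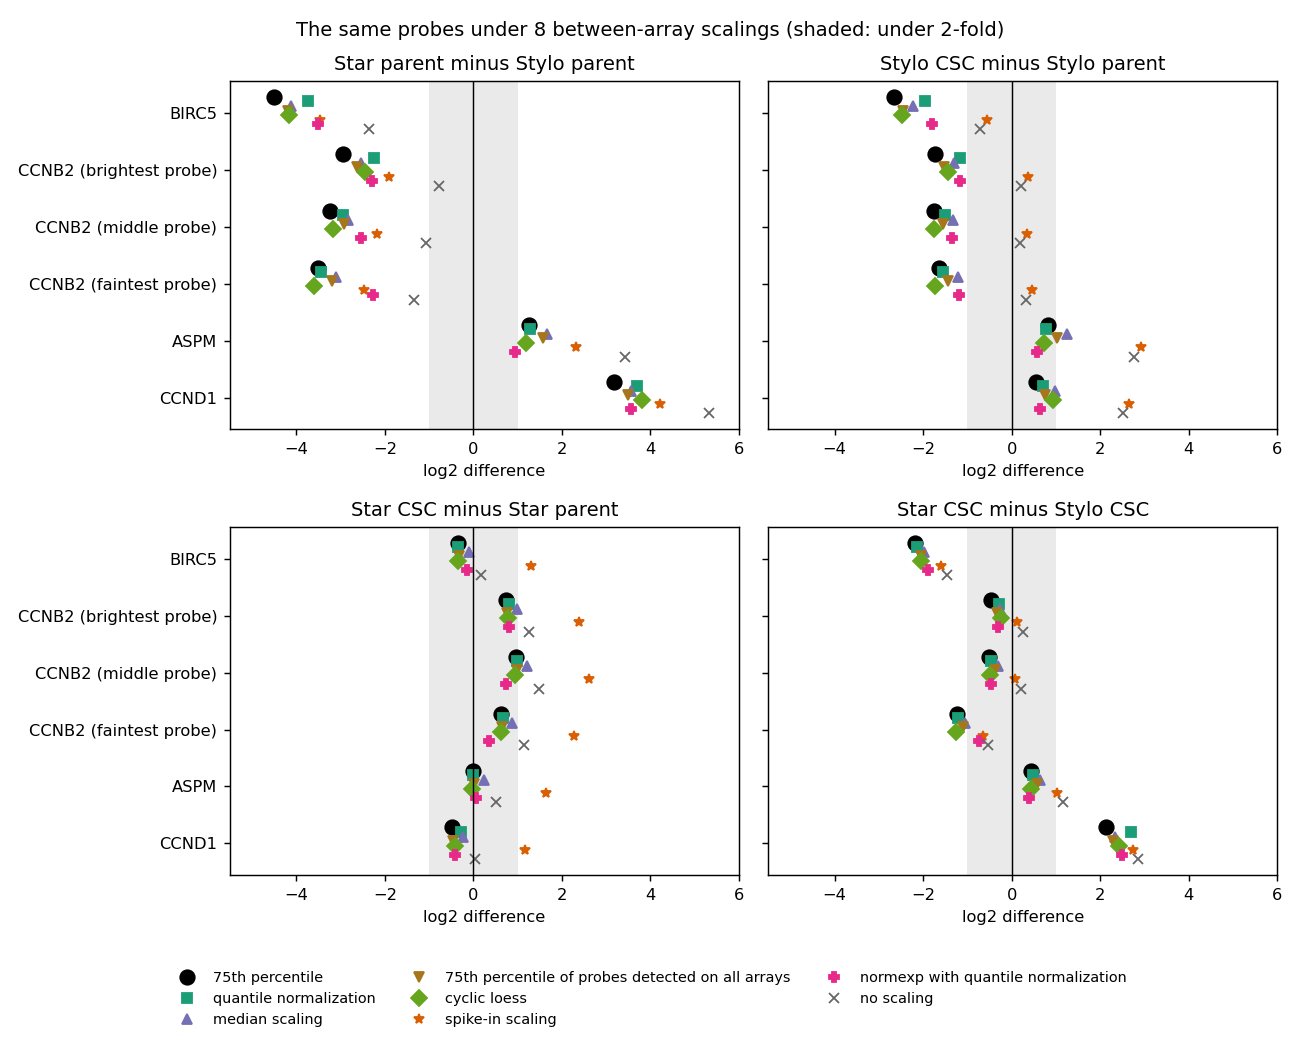
Log2 difference (x axis) of each probe in 4 comparisons under 8 ways of scaling the arrays, 1 symbol per scaling, with a shaded band for changes under 2-fold. In Stylo CSC minus Stylo parent the CCNB2 symbols for spike-in scaling and no scaling lie right of 0 and the other 6 lie left of it.

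The wider cell cycle was read through a list of 119 genes in 6 roles, of which 21 had a named probe and 18 were measured, the 4 members among them. In Star parent against Stylo parent 4 of the 18 rose and 6 fell, with a median log2 difference of -0.54. Over the 978 named genes tested, 59.7% were called in that comparison, 20.6% higher and 39.2% lower, with a median of -0.50. In Stylo CSC against Stylo parent 2 rose and 5 fell (median -0.23), when 57.3% of the named genes were called, 19.3% higher and 37.9% lower (median -0.59). None of the 18 was called by limma in Star CSC against Star parent, where 12.9% of the named genes were (5.52% higher and 7.36% lower), and 4 had an unadjusted p under 0.05. Between the sorted cells, 2 rose and 3 fell in Star CSC against Stylo CSC (median -0.24), when 38% of the named genes were called, 15.7% higher and 22.3% lower. For the sorting difference between the lines 6 were higher and 5 lower (median 0.13), when 54.1% of the named genes were called, 33.2% higher and 20.9% lower. Without the 4 members, 2 of 14 rose and 4 fell in Star parent against Stylo parent, and 2 rose and 3 fell in Stylo CSC against Stylo parent. With 18 genes, no shift of the list as a whole can be read from these counts.

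Among the other mitosis genes, MCPH1 (microcephalin, which restrains early chromosome condensation) rose by 1.60 ± 0.12 in Star parent against Stylo parent and by 1.46 ± 0.12 in Stylo CSC against Stylo parent (limma adjusted p = 4.76e-05 and 8.50e-05). It was called in both under all 8 scalings, and its other probe rose in both as well (2.04 ± 0.14 and 1.60 ± 0.14). Like ASPM it is a gene whose loss causes primary microcephaly in humans. The B-type cyclin CCNB3 gave -0.37 ± 0.10 and -0.01 ± 0.10 and was not called.

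Of the 2 genes measured in G1 control, MYC, a transcription factor that drives growth, was not called in any of the 5 contrasts, its differences lying between -0.36 and -0.01. CCND1 was the other. Upstream of CCND1, the growth factor receptor ERBB2 was not called in any contrast. TCF4, listed in this role, is a basic helix-loop-helix factor distinct from the Wnt effector TCF7L2. It rose by 1.28 ± 0.16 in Stylo CSC against Stylo parent (limma adjusted p = 0.000666). TCF4 lost this call with normexp and quantile normalization together. Its other probe, not above background on the Stylo parent arrays, gave 0.96 ± 0.25 there and was not called. CTNNB1, which encodes beta-catenin, fell by 2.02 (SE 0.21) on its brightest probe in Star CSC against Stylo CSC (limma adjusted p = 0.00116). Its 4 probes disagreed, and 2 of them were not called there (0.22 ± 0.17 and -0.46 ± 0.12). TYMS, thymidylate synthase of the replication group, was not called in any contrast.

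CDKN1B, which encodes the kinase inhibitor p27, fell in Star parent against Stylo parent (-2.26 ± 0.16, limma adjusted p = 4.50e-05), where its other probe fell by 2.59. This call was lost with no scaling (-0.09). It measured -1.60 and -1.60 in Star CSC, -2.13 and -2.35 in Star parent, -0.75 and -0.87 in Stylo CSC, and -0.18 and 0.22 in Stylo parent. At this scaling Stylo parent was the highest group and Star parent the lowest on this probe, the brighter one, with no overlap, whereas the unscaled signals were 177 and 153 in Star CSC, 84.7 and 65.0 in Star parent, 184 and 162 in Stylo CSC, and 77.8 and 80.6 in Stylo parent. On the other probe Star parent (-2.04 and -3.32) overlapped Star CSC (-2.84 and -1.81). MDM2, which marks p53 for degradation and is itself a p53 target, was low in Stylo CSC alone at this scaling. Its level was 1.94 and 1.89 in Star CSC, 1.24 and 1.77 in Star parent, -0.10 and -0.31 in Stylo CSC, and 1.76 and 1.74 in Stylo parent. It fell in Stylo CSC against Stylo parent (-1.96 ± 0.19, limma adjusted p = 0.000186) and was higher in Star CSC against Stylo CSC (2.12 ± 0.19, limma adjusted p = 0.000360). The first of these calls was lost with spike-in scaling (0.15) and with no scaling, and the other held under all 8 scalings.

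In the apoptosis arm that BIRC5 belongs to, the inhibitor XIAP fell in Star parent against Stylo parent (-1.75 ± 0.14, limma adjusted p = 7.56e-05) and so did DIABLO, an antagonist of these inhibitors (-2.26 ± 0.22, limma adjusted p = 0.000165). CASP9, the initiator caspase of the mitochondrial pathway, rose there (1.13 ± 0.12, limma adjusted p = 0.000232). With no scaling XIAP turned to 0.41 and DIABLO stood at -0.10, neither of them called. XIAP also lost its call with spike-in scaling (-0.70), and CASP9 lost its call with normexp and quantile normalization together (0.47). DIABLO also fell in Stylo CSC against Stylo parent (-1.84 ± 0.22, limma adjusted p = 0.000465), a call lost with spike-in scaling (0.26) and with none (0.11). BIRC2 was called lower in both comparisons (-1.06 ± 0.30 and -1.07 ± 0.30), close to the 2-fold limit, and kept the call in 1 and 2 of the 8 scalings. BIRC3 was not called in any of the 5 contrasts. At the main setting these falls were smaller than that of BIRC5 in both comparisons.

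**Figure D5:**
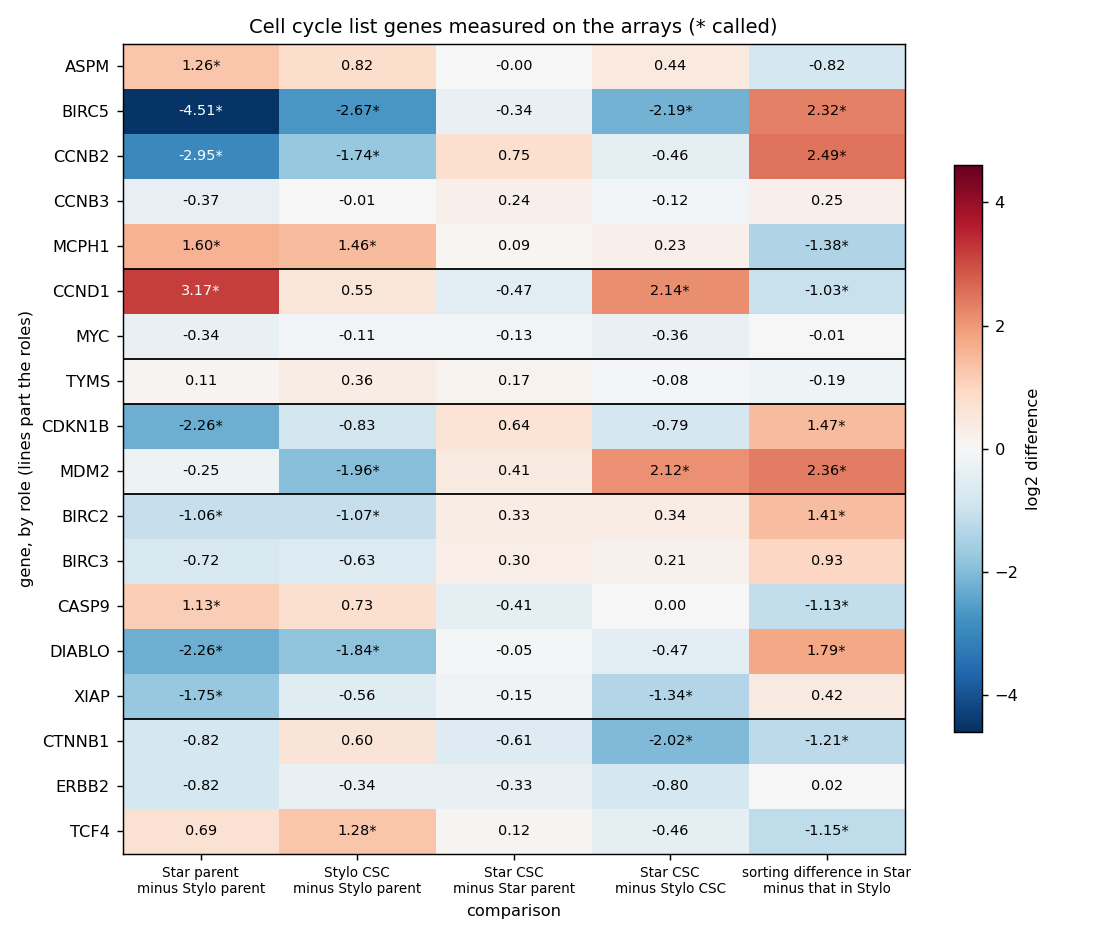
Log2 differences of the 18 measured cell cycle list genes (rows, grouped by role with lines between roles) in the 5 contrasts (columns), with an asterisk for called genes and colour from blue (lower) to red (higher). The column for Star CSC minus Star parent holds no asterisk, and BIRC5 has the deepest blue at -4.51.

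Over the 8 arrays, at the main scaling, the members split into a pair that ran together and a pair that ran opposite. Correlations, here and with other genes, were taken at that scaling only. The unscaled signals of the brightest CCNB2 probe were highest in Star CSC, whereas those of BIRC5 were highest in Stylo parent. BIRC5 and CCNB2 correlated at 0.93 and ASPM and CCND1 at 0.88, while BIRC5 correlated at -0.97 with ASPM and at -0.87 with CCND1 (Pearson over 8 arrays in 4 groups, a description). Among 724 named genes above background on all arrays, those most like BIRC5 were AMN (0.987), SEC11A (0.985) and RPL12 (0.985). Among those most like CCNB2 were ARG2 (0.996) and EXOC6 (0.994). Those most like ASPM were PRKCD (0.994), ZNF622 (0.992) and STOM (0.989), and those most like CCND1 were RHPN2 (0.987), OAZ2 (0.984) and HSPB8 (0.980). Such likeness was common across these 8 arrays, which share 4 groups. A correlation above 0.9 was reached by 181 of the 724 genes with BIRC5, 164 with CCNB2, 55 with ASPM and 30 with CCND1.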

How the data were processed

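RNA of 8 samples was measured on 1-colour Agilent arrays. The scanner files the authors deposited hold, for each spot, a background-subtracted intensity called the processed signal, made with Feature Extraction 11.5.1.1 (file headers). Log2 values stand in the deposited series matrix. These matched, within an SD of 0.00164 over 26823 probes, the log2 signal less the array's 75th percentile, centred per probe on the median of the arrays, and their column medians ran from -0.27 to 1.01.

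Groups came from the sample titles. Control spots and 146 outlier spots, none on a member probe, were left out. CTNNB1's brightest probe thereby lacks Star parent replicate 2. Processed signals were put on the log2 scale, the 75th percentile of each array was taken off, and the result was fitted with limma 3.58.1 in R 4.3.3 (lmFit and eBayes, 4 groups, all 8 arrays), two-sided, with Benjamini-Hochberg adjustment over the 26823 probes that 1 group or more showed well above background on both of its arrays. A call needed an adjusted p under 0.05 and 2-fold. Intervals are at 95% from the same fit. Symbols came from a RefSeq gene table (UU_Cfam_GSD_1.0, names only) matched on accession without version, which named 2353 of 43603 probes. Where a list gene had several tested probes, the one of highest mean level stands for it, and all measured list genes could be named. Marker lists covered epithelial, myoepithelial, fibroblast, endothelial and leukocyte cells, and the sort, where 3 of 5 markers had a named probe. With sorting, CD44 was not called in Star (-0.88) or in Stylo (0.99), and ALDH3A1 was called lower in both (-1.51 and -1.69). ALDH1A1, above background in Star CSC alone, was called higher in Star (2.06) and lower in Stylo (-1.98). The genes most like a member are the 3 with the highest Pearson correlation, of which 1 for CCNB2 is not reported here. The summed marker level adds linear signal over the 75th percentile. Array number and signal over background limit the precision.

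The members, lists and tests were chosen with earlier results of these data known. Same-numbered arrays had deviations correlated at -0.07 to 0.07, which gave no sign of pairing by number but cannot exclude it. No label states such a pairing, and the main fit has no term for it. Slide was no term, being aliased with line, and slide position was none either, being aliased with sorting. Alternatives were quantile, median, detected-probe, cyclic loess and spike-in scaling, normexp with quantile normalization (offset 50, on the median signal, since the files hold no mean), no scaling (chosen after seeing the data), filters, thresholds, variance model, the matrix, the replicate block and leaving out each array. The fit was tested on simulated data.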

Additional observations from a re-analysis of the deposited data

Results flagged for a closer look

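For 5 member probes, 3 of them of CCNB2, the sorting difference (CSC minus parent) was called different in the 2 lines by a test of the difference itself. In this contrast 52.1% of all tested probes were called, so the count alone says little about the members. When 1 array was left out, BIRC5 was called in 5 of 8 fits and CCND1 in 2 of 8. As a signed value, Star minus Stylo, the contrast was 2.49, 2.73 and 2.27 on the brightest, middle and faintest CCNB2 probes. It was 2.32 for BIRC5 and -1.03 for CCND1. The BIRC5 sorting difference was -0.34 in Star, not called, and -2.67 in Stylo, so the shift was the smaller in Star. For CCND1 it was -0.47 in Star and 0.55 in Stylo, neither called. In Star the 3 CCNB2 probes were higher in CSC by 0.63 to 0.97, and in Stylo they were lower, at -1.76 to -1.64, but positive with spike-in scaling and with no scaling. The BIRC5 call was lost with no scaling (0.88) and with quantile normalization (1.60), and the CCND1 call with quantile normalization and with spike-in scaling (-1.48). The Stylo parent arrays, which enter this contrast, were the dimmest, and the part of their dimness was not tested.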

How the results depend on the processing

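Of the 684 values of member probes under 23 alternatives, 613 kept their direction and their side of the threshold. With the sign kept, 21 lost a call and 28 gained one. The other 22 changed sign, and some of these also lost or gained a call. Probes called in Star parent against Stylo parent (15167) became 8124 with normexp and quantile normalization together (called normexp from here on) and 26734 with no filter on dim probes. For Stylo CSC against Stylo parent (14483) these were 6705 and 28650. For Star CSC against Star parent (2608) the count was 21617 with spike-in scaling, 759 with normexp, 4292 with no scaling, 1339 over probes detected on all arrays and 7922 with no fold limit. For Star CSC against Stylo CSC (7897) it was 2671 with normexp, 4557 over probes detected on all arrays and 15288 with no fold limit. For the sorting difference between lines (13987) it was 8339 with spike-in scaling, 7409 with normexp and 21988 with no filter. Fewer or more probes tested sets the counts under the filters by construction. Dropping the fold limit can only add calls, also by construction. For the other settings the cause was not tested.

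Member probes called in Stylo CSC against Stylo parent (4) were 2 with spike-in scaling and 2 with no scaling, where all 4 lost their call and the 2 called were ASPM and CCND1, higher. Of the 26823 probes tested, 18075 were called higher and 287 lower with spike-in scaling there, and 17307 and 508 with no scaling. For Star CSC against Star parent (0) they were 1 with median scaling, 6 with spike-in scaling, 3 with no scaling, 3 with no fold limit and 0 to 2 when an array was left out. Of the 26821 probes tested there, spike-in scaling called 21617, no scaling 4292 and no fold limit 7922. Median scaling called 1608 higher and 1130 lower. In Star CSC against Stylo CSC (3) they were 6 with no fold limit, when 15288 of the 26821 probes tested were called. For the sorting difference (5) they were 3 with quantile normalization and 3 to 5 when an array was left out. Quantile normalization called 6316 of all tested probes higher and 7227 lower there. Cell cycle list genes called in Stylo CSC against Stylo parent (7) were 13 with spike-in scaling, with no scaling and with no fold limit. For the sorted Star cells (0) they were 17 with spike-in scaling, 2 with no scaling, 4 with no fold limit and 0 to 1 when an array was left out. Between the sorted cells (5) they were 9 with no fold limit. For the sorting difference (11) they were 4 with spike-in scaling, 6 with normexp and 7 to 10 when an array was left out. The number of all probes called also changed with these settings, so no result about the members or the list is read from these counts.

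Sign changes in Stylo CSC against Stylo parent were those of the 3 CCNB2 probes, at 0.36, 0.35 and 0.46 with spike-in scaling and at 0.21, 0.20 and 0.31 with no scaling. Within Star CSC against Star parent, spike-in scaling turned BIRC5 (1.30), ASPM (1.64) and CCND1 (1.17), and no scaling turned BIRC5 (0.17), ASPM (0.50) and CCND1 (0.0346). ASPM also turned with median scaling (0.23), the detected-probe percentile (0.0172), normexp (0.0482), without Star CSC replicate 1 (0.0020) and without Star parent replicate 2 (0.0242), its range without 1 array being -0.0339 to 0.0242. BIRC5 turned without Star CSC replicate 1 (0.39), its range being -1.07 to 0.39. In Star CSC against Stylo CSC the brightest and middle CCNB2 probes turned with spike-in scaling (0.13 and 0.0856) and with no scaling (0.25 and 0.21).

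The share of calls that were higher depended on the scaling. In Star parent against Stylo parent it was 43.5% at the main setting, 55.3% with quantile normalization, 56.9% with median scaling, 54.3% with the detected-probe percentile, 76.5% with spike-in scaling and 94.1% with none. In Stylo CSC against Stylo parent it was 40.6%, against 53.9%, 57.2%, 48.3%, 98.4% and 97.1% in the same order, and 51.8% with cyclic loess. For Star CSC against Star parent it was 33.1%, against 46.6%, 58.7%, 34.9%, 99.2% and 83.2%, and 47.4% with loess. Between Star CSC and Stylo CSC it was 42.8%, against 52.4%, 56.2%, 51.9%, 75.4% and 82.6%. For the sorting difference it was 54.0%, against 46.6%, 46.5%, 47.2%, 32.3% and 10.5%.

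With the replicate block the probes called were 15147, 14458, 2525, 7868 and 13940 over the 5 contrasts in the same order, and the counts of member probes called did not change.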
